A study of Sus scrofa with 67 samples.

Results

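In the pig oviduct, 46 of the 25322 genes counted were low on day 9 of the oestrous cycle against day 0 and stayed within limits set on the change in endometrium and ovary. They were chosen by their measured values in RNA-seq counts. The level of a gene was its count per 1000000 counts of a library (CPM), averaged over the libraries of a tissue and day with 1 CPM added. A gene was taken when day 9 divided by day 0 was at most 0.25 in oviduct and between 0.5 and 2 in both endometrium and ovary. Of the 46 genes, 26 are paired with a gene symbol and 20 are known here by their Ensembl identifier only. A ratio of at most 0.25 in oviduct was found for 155 genes in all, of which 70 were at 0.5 or less in endometrium and 54 at 0.5 or less in ovary.

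The animals were crossbred (Landrace × Yorkshire) gilts, 6 to 8 months old, and day 0 was the first day of oestrous behaviour. Oviduct was taken from the ampulla, endometrium was freed of myometrium, and the ovary was taken whole. Poly-A RNA of each tissue was sequenced every 3 days from day 0 to day 18. A group of tissue and day held 3 libraries as a rule. Ovary had 2 on day 3, oviduct had 2 on day 6, endometrium had 4 on day 15, and for both oviduct and ovary days 12 and 15 had 4. By design 3 gilts were sampled per day and gave all tissues, fewer than the 4 libraries of some groups, and no label ties a library to a gilt. P-values therefore measure the spread between libraries, which may be technical in part, and gilts shared between tissues entered the fits only as an alternative. Libraries are named below by the number in their column of the count table, which the main fits did not use to pair libraries.

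The ampulla is the wide upper stretch of the oviduct in which fertilisation takes place. Its folded mucosa holds ciliated and secretory epithelial cells on a stroma, surrounded by smooth muscle. Around oestrus it is under oestrogen from the ovarian follicles, and its epithelium secretes OVGP1, the oviduct-specific glycoprotein. After ovulation the corpora lutea secrete progesterone, and when they regress late in the cycle new follicles grow and oestrogen returns. The members with a symbol include contractile proteins (ACTA1, ACTC1, MYH6), genes best known from neurons (GRM4, SLC1A6, RIMS1, BRINP1, SYNDIG1, SCGN, DGKB, PLPPR5), transporters and enzymes (MFSD2A, SLC5A5, MIOX, LRAT, CA3, CA12) and keratins (KRT73, KRT85).

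The 66 libraries held 8962103 to 13442083 counts, so that 3 counts, taken as the lowest detectable level, stood for 0.223 to 0.335 CPM in a library. OVGP1 had 1141 to 203311 CPM in oviduct libraries, at most 119 CPM in endometrium and at most 1971 CPM in ovary, and its share of all counts in oviduct was 5.13% to 16.8% on day 0 and 0.114% to 0.753% on day 9. Across all genes, 65 of the 66 libraries correlated best with the other libraries of their own tissue. The exception was library 1 of the ovary on day 15, with a median Pearson r of 0.941 with ovary libraries and 0.942 with oviduct libraries. It had 576 CPM of KRT8, an epithelial keratin that reached at most 67.2 CPM in the other ovary libraries. It belongs to no group compared below, and the counts of members called in fits that held it moved by at most 1 when it was left out. In whole tissue, fewer cells of a type and less RNA per cell cannot be told apart.

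The levels on days 0 and 9 chose the members and are given as a description. In oviduct the ratio ranged from 0.0240 for ENSSSCG00000026789 to 0.249 for SLC5A5, the sodium/iodide symporter. The members just inside the limit were GHDC (0.240), RALYL (0.246) and SLC5A5 (0.249), and the genes just outside it were ENSSSCG00000013380 (0.252), GDPD2 (0.253) and ENSSSCG00000031063 (0.254). For 43 of the 46 members every library of day 0 lay above every library of day 9, as in 9.26% of the genes tested. In ENSSSCG00000013369, ACTA1 and ENSSSCG00000023587 the days overlapped. In 15 members a single library held more than 50% of the CPM summed over day 0. Over all 46, library 1 was the highest of day 0 for 15 members, library 2 for 19 and library 3 for 12. Leaving out each library of days 0 and 9 in turn gave 43 to 52 members, and 22 of the 46 were chosen every time.

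The rule leaves much of the contrast between tissues to the level. With 1 CPM added, the ratio cannot reach 0.5 in a tissue where the day 0 mean is under 1 CPM. That held for 28 members in endometrium, for 25 in ovary and for 19 in both. In only 12 members could the ratio have reached 0.5 in both tissues. Members of low level could also fall by more than their ratio shows. EPHB1 in endometrium went from a mean of 1.42 CPM on day 0 to 0.270 CPM on day 9. VWCE in ovary went from 1.17 to 0.191 CPM. GHDC, SGO2 and CPAMD8 were among the members with a level to lose in endometrium, with means of 16.5, 12.9 and 24.6 CPM on day 0 and 8.33, 6.85 and 19.7 CPM on day 9. Averaged over the 7 days, 43 members were higher in oviduct than in endometrium and 42 were higher in oviduct than in ovary. This average includes day 0, on which the rule needs a high oviduct level, so these counts are in part fixed by the choice. On day 12, which the rule did not use, 28 of the 46 members had a log2 fold change above 0 against endometrium and 23 against ovary.

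**Figure D1:**
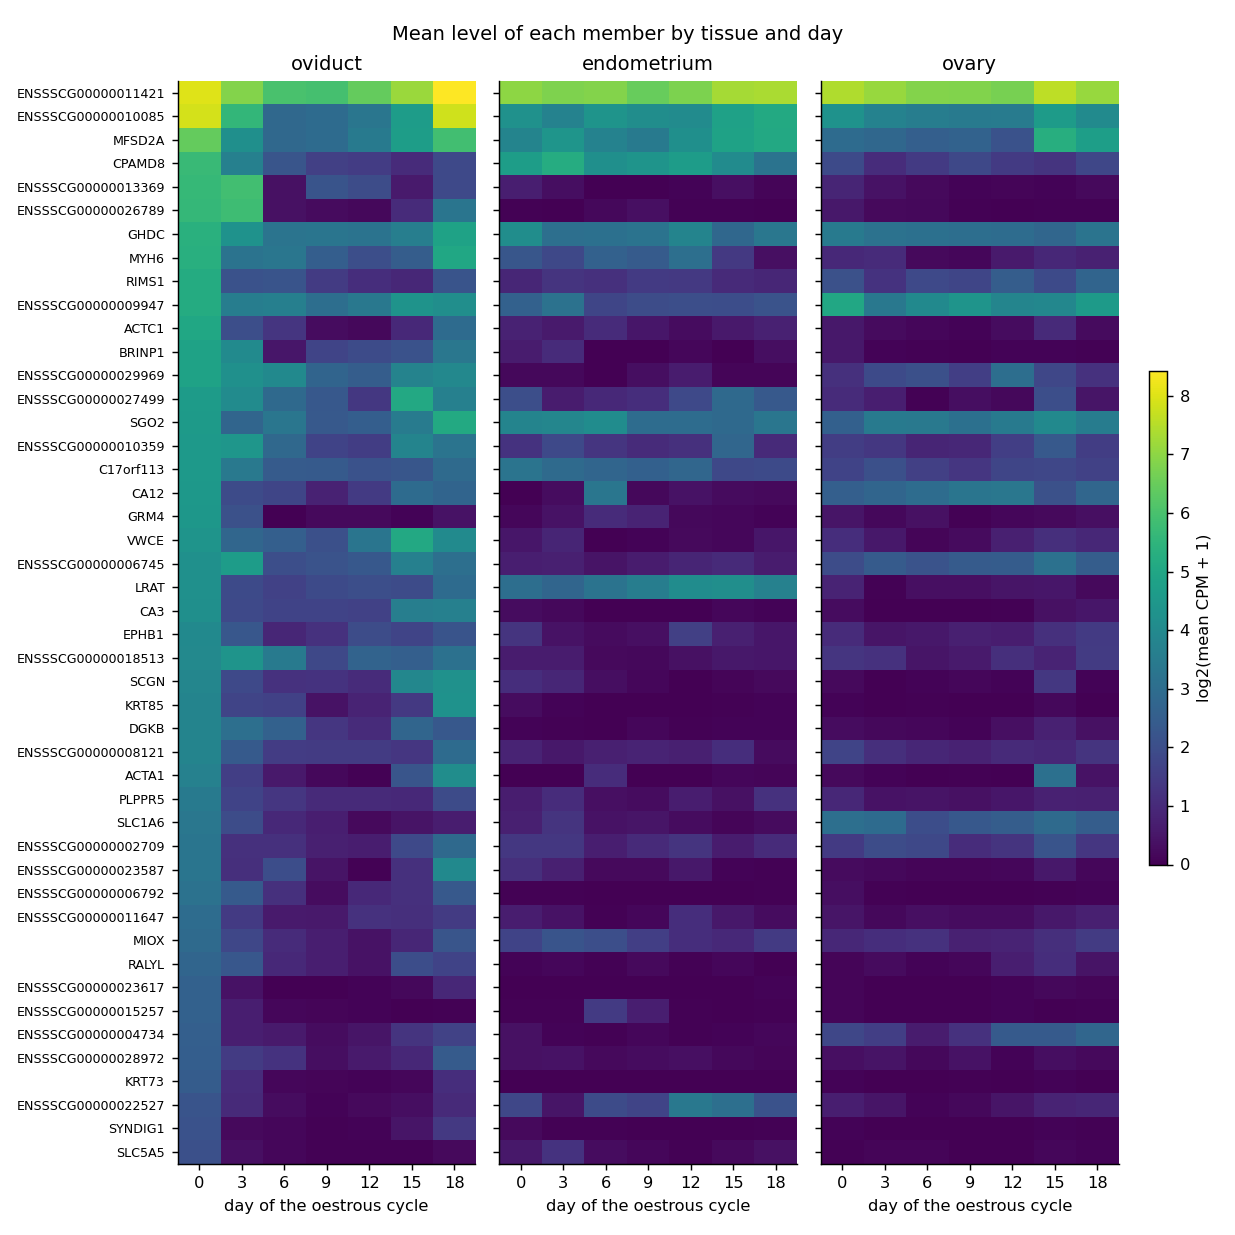
Mean level of each of the 46 members by day of the oestrous cycle (x axis) in oviduct, endometrium and ovary, as log2(mean CPM + 1) by colour, with members ordered by their oviduct level on day 0. The oviduct columns are brightest on day 0, followed by days 18 and 3, and darkest around days 9 and 12, while most rows of endometrium and ovary stay dark throughout.

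The median of the 46 members on log2(CPM + 1) shows the course over the oviduct libraries. It was 3.68, 4.06 and 4.06 in the libraries of day 0, and 2.28, 2.63 and 1.44 on day 3. On day 6 it was 1.67 and 1.28. The libraries of day 9 had 1.20, 1.05 and 0.81. Day 12 was as low as day 9, with 1.39, 0.79, 0.97 and 0.87. On day 15 the libraries had 1.63, 0.57, 1.57 and 1.99, and on day 18 they had 1.60, 2.55 and 3.12. Libraries of 1 day thus differed widely on days 3, 15 and 18: library 3 of day 3, library 2 of day 15 and library 1 of day 18 were each the lowest of their day. The libraries of day 18 summed to 365, 1152 and 1430 CPM over the 46 members, against 163 to 224 CPM on day 12. The same median lay between 0.15 and 0.89 in endometrium libraries and between 0.17 and 1.58 in ovary libraries, the highest being library 1 of the ovary on day 15.

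**Figure D2:**
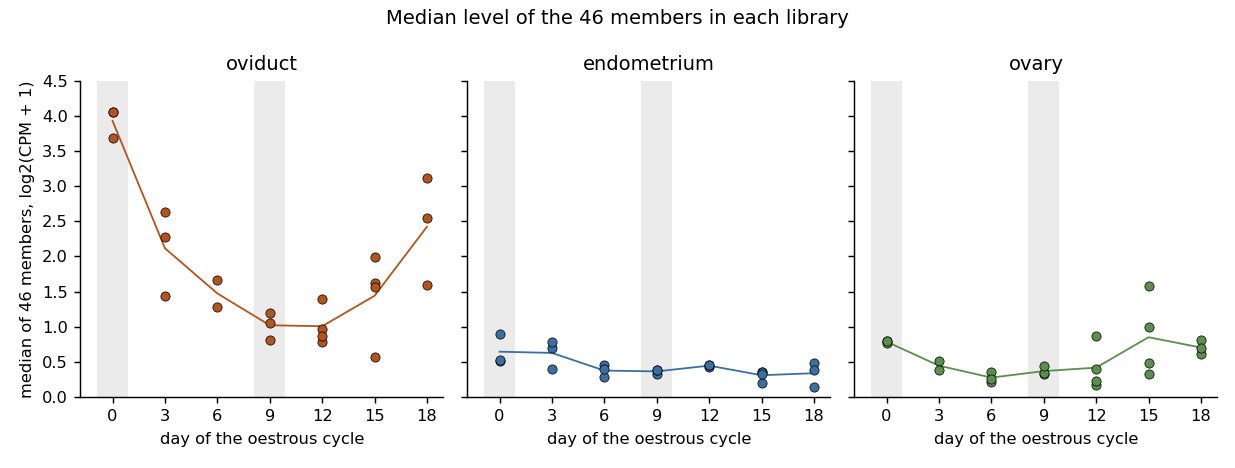
Median over the 46 members of log2(CPM + 1) in each library (points) by day of the oestrous cycle, with lines through the mean of each day; grey bands mark days 0 and 9, which chose the members. Oviduct libraries run from 3.68 to 4.06 on day 0 down to 0.79 to 1.39 on day 12 and up to 1.60 to 3.12 on day 18, while endometrium libraries stay at or under 0.89.

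The levels between can be placed on a scale whose ends chose the members, so that the places are a description and a day 3 level under that of day 0 is in part fixed by the choice. With the mean log2(CPM + 1) of day 0 set to 0% and that of day 9 to 100%, the median member stood at 63.2% by day 3 and 89.0% by day 6. It stood at 101% on day 12, and then at 83.6% (day 15) and 49.5% (day 18). On day 3, 35 of the 46 members were past 50%, and on day 12 all 46 were. On day 18 only 22 were still past 50%, and 6 members stood above their day 0 level: ENSSSCG00000023587, SCGN, ACTA1, SGO2, ENSSSCG00000011421 and KRT85. Combining both ends, 18 members were past 50% on day 3 and back on day 18, and 17 were past 50% on both days. Another 6 members were under 50% on both days, and 5 were under 50% on day 3 and past it on day 18.

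The fall was tested between days that the choice of members had not used, as day 12 against day 3 in oviduct. By the quasi-likelihood test of edgeR, adjusted after Benjamini and Hochberg over all genes, 10 of the 46 members fell and none rose, beside 2.52% of the 15665 genes tested that were called lower and 1.05% called higher. At an unadjusted p under 0.05, 29 members were lower and none was higher, beside 3055 of the 15665 genes in either direction. DESeq2 called 15 members lower and none higher. The median member changed by −2.20 on the log2 scale and the median of all genes by 0.02. The members that fell were ENSSSCG00000026789, GRM4, ACTC1, KRT73, SLC1A6, ENSSSCG00000010359, MIOX, CPAMD8, C17orf113 and GHDC. In 14 members every library of day 12 lay under every library of day 3, which was so for 4.67% of all genes tested. The count of 10 fell to 3 when library 2, 3 or 4 of day 12 or library 1 of day 3 was left out, and to 5 without library 2 of day 3. Fitted with the libraries of these days alone, where 32 of the members passed the filter on low counts, 4 fell. ENSSSCG00000026789, SLC1A6 and CPAMD8 passed in every refit that gave them an adjusted p.

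The return was tested as day 18 against day 12 in oviduct, and 24 of the 46 members rose while none fell. Of all genes tested 13.4% were called higher and 8.98% lower. At an unadjusted p under 0.05, 32 members were higher and none was lower, beside 5944 of the 15665 genes in either direction. DESeq2 called 29 members higher and none lower. The median member changed by 2.28 on the log2 scale and the median of all genes by 0.00. In 19 members every library of day 18 lay above every library of day 12, which was so for 9.35% of all genes tested. The count depended on single libraries of day 18: it was 15 without library 2 or without library 3, and 28 without library 1. With only the libraries of these days in the fit, 34 members passed the filter and 12 rose. Of the 24 members, 11 passed whichever library of the 2 days was left out: ENSSSCG00000011421, ENSSSCG00000010085, MFSD2A, GHDC, ACTC1, SCGN, KRT85, ACTA1, ENSSSCG00000002709, MIOX and ENSSSCG00000028972. Both tests share the libraries of day 12. In the 46 members, 6 passed in both, 4 only fell, 18 only rose and 18 passed in neither. No share of all genes stands beside these joint counts, so they cannot be read as unusual.

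**Figure D3:**
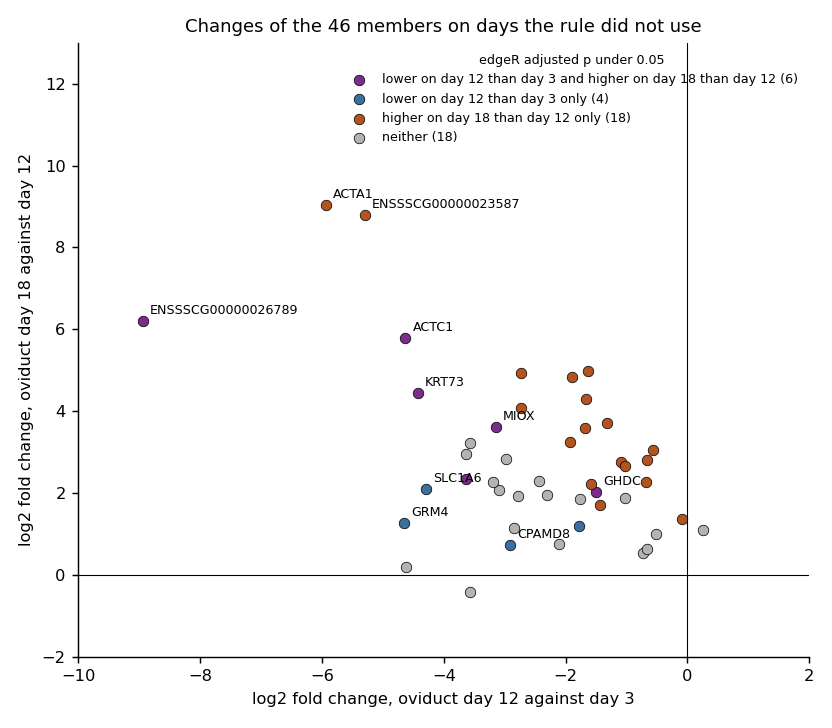
Log2 fold change of each of the 46 members in oviduct on day 12 against day 3 (x axis) and on day 18 against day 12 (y axis), coloured by the edgeR calls at an adjusted p under 0.05. Of the 46 points 6 passed in both comparisons, 4 only on the x axis and 18 only on the y axis, and 45 lie above 0 on the y axis. Both axes share the libraries of day 12, and no share of all genes stands beside these joint counts.

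From day 3 to day 6, from day 12 to day 15 and from day 15 to day 18, edgeR called 0 members in oviduct. The shares of all genes called were 0%, 0.00638% and 0.00638% in each direction. Without adjustment (p under 0.05), 15 members were lower on day 6, 15 were higher on day 15 and 24 were higher on day 18. At that cut 1199, 2214 and 2518 of the 15665 genes tested passed in either direction. DESeq2 called 3 members lower on day 6, 5 higher on day 15 and 6 higher on day 18. From day 12 to day 15, 8 members were called without library 2 of day 15. From day 15 to day 18 the count was 11 without library 1 of day 18 and 4 without library 4 of day 15.

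The contractile genes ACTC1, ACTA1 and MYH6 were low on day 12 and were called higher on day 18, though library 1 of day 18 stayed low for ACTA1 and MYH6. ACTC1, the alpha-actin of cardiac muscle, had 6.68, 77.5 and 11.1 CPM in the libraries of day 0 and 4.42, 0.812 and 3.94 CPM on day 3. It had 0.0984, 0.112, 0.107 and 0.195 CPM on day 12 and 4.42, 5.91 and 9.73 CPM on day 18. Its libraries did not overlap between day 12 and either of the other days. It fell on day 12 against day 3 (log2 fold change −4.63, SE 1.16, edgeR adjusted p = 0.0354), though the adjusted p rose to between 0.0550 and 0.143 when any single library except library 2 of day 3 was left out. Its rise on day 18 against day 12 (5.79, SE 1.13, edgeR adjusted p = 0.00423) passed whichever library was left out.

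ACTA1, the alpha-actin of skeletal muscle, was far less even. It had 0.199, 11.4 and 24.5 CPM on day 0 and 5.52, 0.180 and 0.104 CPM on day 3. A single count was found over the 4 libraries of day 12, and on day 18 the libraries had 0.360, 25.4 and 23.8 CPM. The ratio of summed counts between day 18 and day 12 was 639 (95% counting interval 114 to 25287), and the edgeR test called the gene higher on day 18 (adjusted p = 0.0120). Library 1 of day 0 was as low as the libraries of day 9. MYH6, the alpha heavy chain of cardiac myosin, had 11.8, 90.0 and 15.1 CPM on day 0, 1.79 to 4.52 CPM on day 12 and 1.53, 23.6 and 70.0 CPM on day 18. It rose between those days (3.58, SE 0.89, edgeR adjusted p = 0.0111), although library 1 of day 18 lay under all libraries of day 12 and the adjusted p was 0.0591 without library 3 of day 18. Actin genes resemble each other closely, as do some myosin heavy chain genes, and how the counting treated shared reads is not known. The values of ACTA1, ACTC1 and MYH6 are uncertain in that respect.

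Both glutamate genes fell, and neither was called higher on day 18. GRM4, a metabotropic glutamate receptor, had 37.9, 4.51 and 20.8 CPM on day 0 and 1.38, 8.21 and 0.311 CPM on day 3. From day 6 to day 15 no library was above 0.391 CPM, and day 18 had 0, 0.0869 and 0.936 CPM. GRM4 fell on day 12 against day 3 (−4.66, SE 1.21, edgeR adjusted p = 0.0416), a call lost without any single library other than library 3 of day 3 (adjusted p up to 0.327 without library 2 of day 3). SLC1A6, a glutamate transporter, had 11.3, 12.7 and 3.63 CPM on day 0 and 2.85, 1.17 and 4.77 CPM on day 3. Its libraries had 0, 0.223, 0.429 and 0 CPM on day 12, and 0.360, 0.782 and 0.655 CPM on day 18. It fell on day 12 against day 3 (−4.29, SE 0.79, edgeR adjusted p = 0.00814), while day 18 against day 12 did not pass (2.10, SE 0.88, adjusted p = 0.0910). In the ovary SLC1A6 had day means of 3.02 to 7.48 CPM.

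SCGN and SYNDIG1 rose on day 18, and RIMS1 was not called. SCGN encodes secretagogin, a calcium sensor of neuroendocrine cells. Its libraries had 2.99, 26.3 and 11.4 CPM on day 0 and 0.688, 1.12, 0 and 2.35 CPM on day 12. On day 15 they had 28.5, 1.54, 1.19 and 24.3 CPM, so that 2 of the 4 libraries were already at the level of day 18, which was 29.7, 10.6 and 14.3 CPM. The rise on day 18 against day 12 was 4.29 (SE 1.14, edgeR adjusted p = 0.0150). SYNDIG1, a protein of the postsynaptic membrane, had 1.49, 3.38 and 5.18 CPM on day 0, 2 counts over the 4 libraries of day 12, and 0.270, 2.87 and 1.78 CPM on day 18. Its ratio of summed counts between these days was 32.0 (95% counting interval 8.44 to 270), with an edgeR adjusted p of 0.00738 that became 0.0504 without library 2 of day 18. RIMS1, a protein of the presynaptic active zone, stayed low: 32.5, 53.2 and 21.8 CPM on day 0, 2.80 to 3.87 CPM on day 3, and 1.08, 3.47 and 6.18 CPM on day 18. Neither test called it (edgeR adjusted p = 0.205 and 0.0849).

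The remaining members of that kind are described because they carry a symbol, not by the rule for named genes. PLPPR5, a membrane protein of the phospholipid phosphatase family, had 7.78 to 12.3 CPM on day 0 and 0.558 to 1.87 CPM on day 12. It rose to 2.08 to 3.84 CPM on day 18 (1.70, SE 0.52, edgeR adjusted p = 0.0262), a call lost without library 2, 3 or 4 of day 12 or library 2 or 3 of day 18 (adjusted p up to 0.0771). BRINP1 had 40.3, 9.02 and 34.5 CPM on day 0 and 0.451, 8.77 and 18.0 CPM on day 18, and DGKB, a diacylglycerol kinase, had 8.77 to 15.4 CPM on day 0 and 1.78 to 7.39 CPM on day 18. Neither passed on day 18 against day 12 (edgeR adjusted p = 0.192 and 0.165).

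MFSD2A varied little between the libraries of day 0. It encodes a sodium-dependent carrier of lysophosphatidylcholine, through which cells take up long-chain polyunsaturated fatty acids. Its libraries had 80.9, 86.0 and 88.9 CPM on day 0, 9.12, 35.7 and 7.05 CPM on day 3, and 5.61, 6.48 and 8.15 CPM on day 9. They had 6.98, 12.2, 12.7 and 8.80 CPM on day 12, and 24.8, 8.28, 8.46 and 58.2 CPM on day 15. On day 18 they had 30.5, 54.3 and 88.3 CPM, all above day 12, and the rise passed (2.75, SE 0.62, edgeR adjusted p = 0.00742). The libraries of days 3 and 12 overlapped, and that difference did not pass (−1.09, SE 0.62, adjusted p = 0.352).

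MIOX, the enzyme that opens the ring of myo-inositol, fell and rose at a low level. Its libraries had 2.12, 4.15 and 1.24 CPM on day 3, 0.393, 0.335, 0.429 and 0.195 CPM on day 12, and 0.811, 3.13 and 6.92 CPM on day 18. Day 12 overlapped neither of the other days. The change was −3.14 (SE 0.71, edgeR adjusted p = 0.0254) on day 12 against day 3 and 3.62 (SE 0.70, edgeR adjusted p = 0.00423) on day 18 against day 12. The fall missed the threshold, with an adjusted p between 0.0676 and 0.0950, without library 2, 3 or 4 of day 12 or library 1 or 2 of day 3.

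CA12 and CA3 are carbonic anhydrases, CA12 at the cell surface and CA3 in the cytosol. CA12, on the list of oestrogen response genes, had 24.3, 22.3 and 18.6 CPM on day 0 and was down to 2.49, 4.96 and 1.04 CPM on day 3. It had 0.782 to 3.24 CPM on day 12 and 4.32, 1.39 and 10.9 CPM on day 18. The libraries of these days overlapped, and the difference missed the threshold (1.87, SE 0.72, edgeR adjusted p = 0.0670). CA3, outside the rule for named genes, had up to 20.9 CPM on day 0 and 1.56 to 2.75 CPM on day 12, and rose to 2.07, 22.0 and 10.9 CPM on day 18 (2.81, SE 0.86, edgeR adjusted p = 0.0267). That call was lost without library 2, 3 or 4 of day 12 or library 2 of day 18 (adjusted p up to 0.206).

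LRAT, which stores retinol as its esters, and SLC5A5 are also outside that rule. LRAT had at least 16.1 CPM in each library of day 0 and had reached 1.76 to 3.52 CPM by day 3. It rose from 2.36 to 4.02 CPM on day 12 to 2.79, 6.43 and 10.9 CPM on day 18 (1.35, SE 0.46, edgeR adjusted p = 0.0424), but passed only when library 1 of day 18 was the library left out (otherwise adjusted p 0.0577 to 0.192). SLC5A5 had 2.54 to 3.54 CPM on day 0 and at most 0.281 CPM on day 18, with no test passed (edgeR adjusted p = 0.286 on day 18 against day 12).

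Both keratins are proteins of the hair follicle. KRT85, a hair-shaft keratin, had 5.28, 21.9 and 11.8 CPM on day 0, 1.38, 5.41 and 0.207 CPM on day 3 and 0.0984, 1.67, 0.107 and 1.27 CPM on day 12. On day 18 it had 4.42, 27.4 and 23.8 CPM, above every library of days 6, 9, 12 and 15. The rise passed (4.84, SE 1.04, edgeR adjusted p = 0.00605). KRT73, an inner root sheath keratin, had 2.44 to 6.18 CPM on day 0, 1.38, 1.80 and 0.104 CPM on day 3 and 2 counts over the 4 libraries of day 12. Its libraries of day 18 had 0.0901, 1.74 and 1.59 CPM. The ratio of summed counts was 22.0 (95% counting interval 5.68 to 189) from day 12 up to day 3 and 22.1 (5.71 to 189) from day 12 up to day 18. Both comparisons passed (edgeR adjusted p = 0.0455 and 0.0150), though the fall passed only when library 3 of day 3 was the library left out (otherwise adjusted p 0.0569 to 0.154) and the rise had 0.0766 without library 2 of day 18. Keratin genes also resemble each other closely, so reads shared among them are a further uncertainty.

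CPAMD8 fell and stayed low, while GHDC fell and rose. CPAMD8, a protein of the complement and alpha-2-macroglobulin family, had 111, 15.2 and 29.4 CPM on day 0 and 14.1, 10.5 and 10.8 CPM on day 3. From day 9 on no library was above 3.65 CPM, and day 18 had 1.89, 2.35 and 3.65 CPM. It fell on day 12 against day 3 (−2.91, SE 0.54, edgeR adjusted p = 0.00829), and day 18 against day 12 did not pass (0.74, SE 0.56, adjusted p = 0.345). GHDC had 44.2, 34.8 and 39.9 CPM on day 0, 16.1, 32.1 and 7.67 CPM on day 3 and 9.84, 7.81, 7.18 and 7.82 CPM on day 12. It was back at 16.0, 33.1 and 33.9 CPM on day 18. Its rise was 2.02 (SE 0.40, edgeR adjusted p = 0.00443), and its fall was −1.50 (SE 0.40, edgeR adjusted p = 0.0447). The fall was lost without any single library other than library 1 of day 12 and library 3 of day 3, with an adjusted p of 0.337 without library 2 of day 3.

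**Figure D4:**
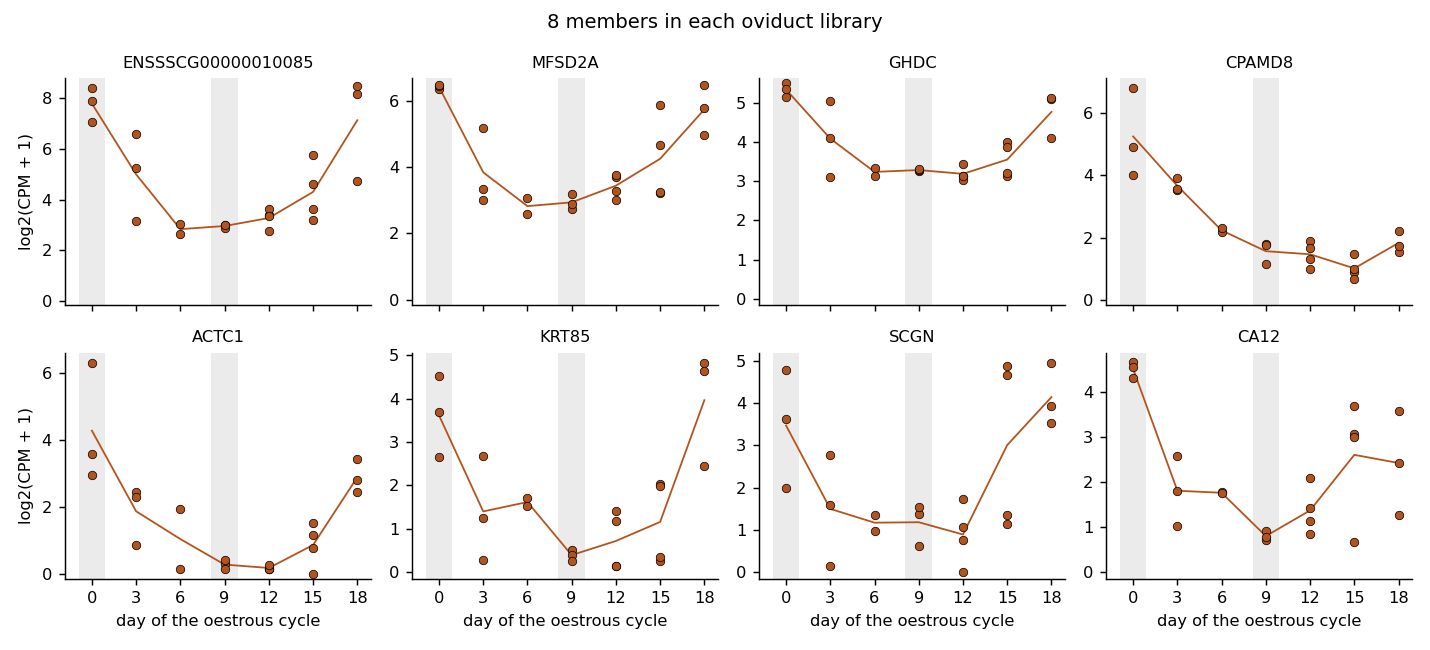
Level of 8 members in each oviduct library (points) as log2(CPM + 1) by day of the oestrous cycle, with lines through the mean of each day and grey bands on days 0 and 9, which chose the members. CPAMD8 stays at or under 3.65 CPM from day 9 to day 18, while MFSD2A, GHDC, ACTC1 and SCGN have every library of day 18 above those of day 12.

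Of the other members with a symbol, C17orf113 fell and SGO2 rose. C17orf113 changed on day 12 against day 3 (−1.78, SE 0.44, edgeR adjusted p = 0.0343), from 13.9, 9.66 and 5.18 CPM to between 2.12 and 4.52 CPM. That call was lost without library 2, 3 or 4 of day 12 or library 1 or 2 of day 3 (adjusted p 0.0641 to 0.180). SGO2, a protector of centromeric cohesion in dividing cells, had 8.17, 51.5 and 10.1 CPM on day 0, 4.13 to 5.08 CPM on day 12 and 4.14, 24.2 and 72.5 CPM on day 18, a rise (3.06, SE 0.83, edgeR adjusted p = 0.0159) that had an adjusted p of 0.0947 without library 3 of day 18. EPHB1, an ephrin receptor, VWCE and RALYL, an RNA-binding protein, passed in neither test (edgeR adjusted p on day 18 against day 12 = 0.511, 0.366 and 0.0652). SGO2, EPHB1, VWCE and RALYL are outside the rule for named genes. The libraries of day 15 were far apart for VWCE, with 8.82, 32.1, 2.76 and 87.1 CPM.

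The members with the most counts are known by identifier only. ENSSSCG00000011421 had 192, 275 and 304 CPM on day 0, 78.2 to 105 CPM on day 12 and 141, 456 and 435 CPM on day 18. It rose on day 18 against day 12 (2.28, SE 0.41, edgeR adjusted p = 0.00361), and it was also high in endometrium and ovary, with day means of 87.9 to 192 CPM. ENSSSCG00000010085 had 133, 241 and 339 CPM on day 0, 36.7, 96.5 and 7.88 CPM on day 3 and 5.70 to 11.3 CPM on day 12. On day 18 it had 25.7, 289 and 361 CPM, and the rise was 4.94 (SE 0.86, edgeR adjusted p = 0.00327). The groups of days 12 and 18 did not overlap for either gene.

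Among the other identifiers, ENSSSCG00000026789 had the lowest ratio of day 9 to day 0. Its libraries had 34.7, 129 and 0.518 CPM on day 3, 0.0977 to 0.214 CPM on day 12 and 0.451, 10.8 and 14.8 CPM on day 18. It fell (−8.94, SE 1.56, edgeR adjusted p = 0.00538) and rose (6.20, SE 1.57, edgeR adjusted p = 0.0120, and 0.0510 without library 2 of day 18). ENSSSCG00000010359 had 28.8, 11.6 and 21.4 CPM on day 3, 4.62, 0.781, 0.858 and 1.37 CPM on day 12 and 6.31, 5.30 and 13.8 CPM on day 18, and passed in both directions (edgeR adjusted p = 0.0280 and 0.0488), the fall being lost without library 2, 3 or 4 of day 12 or library 1 of day 3 (adjusted p 0.0721 to 0.111) and the rise without library 2, 3 or 4 of day 12 or library 2 or 3 of day 18 (0.0934 to 0.147). ENSSSCG00000023587 had 1 count over the 4 libraries of day 12 and 0.541, 3.30 and 41.7 CPM on day 18, a ratio of summed counts of 569 (95% counting interval 102 to 22533). Its edgeR adjusted p was 0.0104 and became 0.0616 without library 3 of day 18. ENSSSCG00000023617 had 2 counts on day 12 and 0.0901, 0.869 and 1.78 CPM on day 18, a ratio of 17.4 (95% counting interval 4.42 to 151), and its call (edgeR adjusted p = 0.0444) was lost without any library of day 12 or library 2 or 3 of day 18. ENSSSCG00000013369 was uneven between libraries, with 115, 0 and 32.1 CPM on day 0 and 154, 1.17 and 20.5 CPM on day 3, and passed in neither test (edgeR adjusted p = 0.0778 and 0.941).

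The identifiers left, outside the rule for named genes, had at most 49.0 CPM in any library of day 0. ENSSSCG00000002709 had 0.295 to 0.893 CPM on day 12 and 2.34, 9.12 and 7.58 CPM on day 18, and rose (3.72, SE 0.62, edgeR adjusted p = 0.00293). ENSSSCG00000008121, ENSSSCG00000004734 and ENSSSCG00000028972 rose as well (log2 fold changes of 2.22, 2.66 and 3.24). The first of these lost its call without library 2 or library 3 of day 18, and the second without library 3. None of ENSSSCG00000009947, ENSSSCG00000029969, ENSSSCG00000027499, ENSSSCG00000006745, ENSSSCG00000018513, ENSSSCG00000006792, ENSSSCG00000011647, ENSSSCG00000015257 and ENSSSCG00000022527 passed in either oviduct test. ENSSSCG00000015257 was held up on day 0 by library 1, with 13.4 CPM against 0.282 and 1.64 CPM in the others, and had at most 0.195 CPM in any library of days 9 to 18.

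In endometrium and ovary edgeR called no member higher on day 18 against day 12. In endometrium 27 of the 46 members passed the filter on low counts. By edgeR 0 were called higher, beside 9.43% of the genes tested, and 4 fell, beside 10.8%: CPAMD8, MYH6, EPHB1 and ENSSSCG00000011647. Before adjustment 1 member was higher and 6 were lower at p under 0.05, beside 5468 of the 15341 genes in either direction. DESeq2 called 0 members higher and 5 lower. CPAMD8 went from 28.9, 12.8 and 30.4 CPM to 5.76, 10.4 and 8.79 CPM (−1.61, SE 0.44, edgeR adjusted p = 0.0178) and MYH6 from 11.3, 6.61 and 4.45 CPM to 0.107, 0.351 and 0.348 CPM (−4.74, SE 1.20, edgeR adjusted p = 0.0124). The 4 members that fell became 1 without library 3 of day 12 or library 1 or 3 of day 18, and 2 without library 1 or 2 of day 12, and only MYH6 passed each time. In ovary 30 members were tested and edgeR called 0, beside 0.62% of genes called higher and 2.31% lower. Before adjustment 1 member was higher and 1 lower there at p under 0.05, beside 3742 of the 15638 genes in either direction. DESeq2 called 1 member higher and 1 lower. Without library 1 of the ovary on day 12, edgeR called 1 higher and 1 lower.

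On day 12 against day 3 in endometrium, 3 of the 27 members tested rose and 3 fell. That is 11.1% each, under the 12.6% and 13.7% of all genes tested. LRAT rose from a mean of 5.79 to 16.2 CPM (1.61, SE 0.34, edgeR adjusted p = 0.00276), and EPHB1 and ENSSSCG00000022527 rose with it, EPHB1 with an adjusted p over 0.05 without library 1 or 3 of day 3 (0.0611 and 0.0645). SCGN, SLC1A6 and ENSSSCG00000009947 fell. The 3 members that fell became 0 without library 1 of day 12 or without library 2 of day 3, 6 without library 3 of day 3, and 1 without library 2 or 3 of day 12 or library 1 of day 3. In ovary edgeR called 0 members on day 12 against day 3, beside 0% of genes in each direction. At an unadjusted p under 0.05, 1 member was higher and 1 lower, beside 899 of the 15638 genes in either direction. DESeq2 called 0 members.

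**Figure D5:**
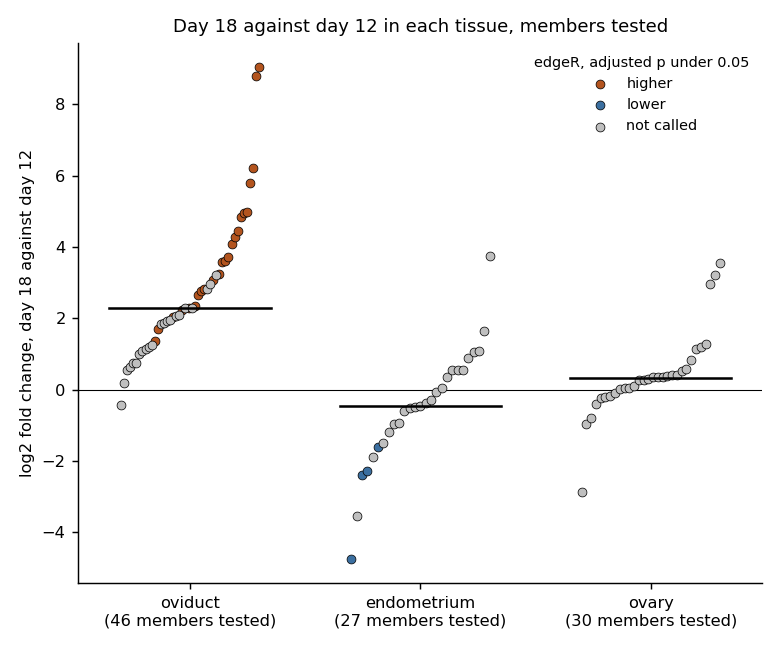
Log2 fold change on day 18 against day 12 of the members that passed the filter on low counts in each tissue (46 in oviduct, 27 in endometrium, 30 in ovary), with the median as a black line and edgeR calls at an adjusted p under 0.05 in colour. The median is 2.28 in oviduct, −0.45 in endometrium and 0.32 in ovary, with 24 members called higher in oviduct and 0 in the other tissues.

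Whether the change itself differed between tissues was tested as an interaction in 1 fit over all 66 libraries. The change on day 18 against day 12 was larger in oviduct than in endometrium for 10 of the 46 members, beside 5.49% of the 16934 genes tested, and smaller for none, beside 3.87%. Against ovary it was larger for 10 members, beside 11.1%, and smaller for none, beside 9.43%. In this fit a member could pass the filter on low counts through the oviduct libraries, and 19 had failed it within endometrium and 16 within ovary. Of those, 1 and 3 were among the members called. Among the 27 and 30 that passed in the other tissue, 9 and 7 were called. At an unadjusted p under 0.05, 20 and 16 members were larger and none was smaller. At that cut 4114 and 5680 of the 16934 genes passed in either direction. DESeq2 called 19 and 10 members larger and none smaller. Both interactions share the oviduct libraries, and no share of all genes stands beside the members that passed in both. The members that passed in both were GHDC, MIOX, ENSSSCG00000002709, ENSSSCG00000010085, ENSSSCG00000011421 and ENSSSCG00000023587. Of these, ENSSSCG00000023587 had failed the filter within ovary, so its call against ovary rests on a gene let in by the other tissues. For GHDC the difference in change was 2.51 against endometrium (SE 0.51, edgeR adjusted p = 0.00153) and 1.91 against ovary (SE 0.50, edgeR adjusted p = 0.00513). MYH6, which fell in endometrium, differed by more (8.28, SE 1.59, edgeR adjusted p = 0.000826). The counts of 10 became 6 and 6 without library 3 of the oviduct on day 18, and the first became 17 without library 1. GHDC, ENSSSCG00000010085 and ENSSSCG00000002709 passed in both interactions whichever library was left out, and MIOX, ENSSSCG00000011421 and ENSSSCG00000023587 did not.

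The same fit compared levels between tissues, where the rule's need for a high oviduct level on day 0 and the filter on low counts favour a higher oviduct. On day 18, 35 members were higher in oviduct than in endometrium (16.6% of genes tested) and none was lower (15.3%), with 1 lower at an unadjusted p under 0.05 and 0 lower in DESeq2. Against ovary 27 were higher (21.1%) and 1, SLC1A6, was lower (22.2%). The members higher than in both tissues numbered 24. No share of all genes stands beside this joint count or the joint count of day 12 below. Among the 27 and 30 members that passed the filter in endometrium and in ovary, 17 and 16 were higher in oviduct. On day 12 the count against endometrium was 11 higher (18.6%) and 4 lower (18.4%), and against ovary 11 higher (27.1%) and 6 lower (27.9%), with 6 higher than in both. The shares of members higher lie near those of all genes and are no result about the members. On day 18 KRT85 had 4.42 to 27.4 CPM in oviduct and no count in ovary, at least 72.2-fold higher against a floor of 3 counts per library. ENSSSCG00000026789 had no count in endometrium on that day and was at least 30.8-fold higher in oviduct. KRT85 had failed the filter within ovary and ENSSSCG00000026789 within endometrium. Their folds therefore describe members that the rule and the filter favour, and are no separate result.

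Only 3 of the members were on the pathway lists used here: ACTA1 and ACTC1 on muscle contraction and CA12 on oestrogen response. The lists moved as follows on day 18 against day 12 in oviduct, beside the 13.4% and 8.98% of all genes called. Of cell cycle genes 13 of 17 rose, among them TOP2A, CDK1 and PLK1, which act in DNA untangling and mitosis, and none fell. Of extracellular matrix genes 14 of 31 rose, among them COL1A2, COL3A1 and ELN, and none fell. Of muscle contraction genes 6 of 14 rose: the members ACTA1 and ACTC1 and also ACTG2, TNNI1, DES and CNN1. Of oestrogen response genes 3 of 15 rose (PGR, the progesterone receptor, IGF1 and IGFBP4) and AREG, an EGF receptor ligand, fell. Growth factor genes gave 4 higher and 2 lower of 17, ion channels and transporters 2 higher and 3 lower of 11, and secretory proteins 3 higher and 1 lower of 12.

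On day 12 against day 3 the lists showed fewer calls, beside the 2.52% of genes lower and 1.05% higher. Of extracellular matrix genes 8 of 31 fell, of muscle contraction genes 3 of 14 (ACTC1, ACTG2 and TNNI1), and of growth factor, ion channel and secretory genes 2 each of 17, 11 and 12, with none higher. Oestrogen response genes gave 1 higher and 1 lower of 15. Cell cycle genes gave 0 calls of 17.

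Summed markers of smooth muscle and stroma in oviduct were low on day 12 as the members were. The smooth muscle markers (8 of 9 in the table) summed to 11846 to 23781 CPM in the libraries of day 3, 2162 to 10838 CPM on day 12 and 11301 to 24798 CPM on day 18, so that day 12 overlapped neither of the other days. In that list 3 of 8 rose on day 18 against day 12 (DES, ACTG2 and CNN1) and 1 fell on day 12 against day 3 (ACTG2). Fibroblast and stroma markers (6 of 8) summed to 2752 to 5363, 1174 to 2695 and 2661 to 6435 CPM on these days, and 4 of 6 rose on day 18 (COL1A2, COL3A1, LUM and VIM) while COL3A1 fell on day 12 against day 3. Secretory epithelium markers (5 of 9) summed to 17238 to 204511, 6351 to 31366 and 12993 to 64633 CPM with OVGP1 included. KRT18 rose on day 18 and EPCAM rose on day 12 against day 3. Ciliated epithelium markers (3 of 10) summed to 1385 to 2096, 1480 to 2470 and 1375 to 1982 CPM, and DNAH9 fell on day 18. Endothelium markers (3 of 5) summed to 128 to 173, 174 to 241 and 182 to 251 CPM and immune markers (6 of 8) to 52.5 to 70.2, 83.9 to 133 and 68.9 to 81.1 CPM, where PECAM1 rose on day 18 and PTPRC rose on day 12. Skeletal or cardiac muscle markers (2 of 6) summed to 2.08 to 5.43, 0.335 to 0.984 and 4.42 to 10.6 CPM, with ACTC1, itself a member, the called gene on both days. Markers of the ovary (4 of 7) summed to at most 49.0 CPM in any oviduct library, with FSHR at 0 to 0.368 CPM, and CYP17A1 fell on day 18. The part of the cell types in the members' changes was not tested.

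From library to library the measured levels of the members were only partly correlated. Over the 16 oviduct libraries of days 3, 6, 12, 15 and 18, with each day's mean taken out, the 1035 pairs of members had a median Pearson r of 0.376, with 64 pairs over 0.8 and 169 under 0. Counting error brings such an r nearer to 0, and 20 members were under 1 CPM in oviduct on day 12. The values therefore do not separate members that move apart from members with few counts. The pairs with the highest r were MYH6 with SGO2 (0.943), EPHB1 with ENSSSCG00000011647 (0.938) and ENSSSCG00000011421 with ENSSSCG00000010085 (0.931). Over the 21 groups of tissue and day, the median member had an r of 0.80 with the mean of the other members. KRT73 (0.968) and ACTC1 (0.960) were the closest to it, and ENSSSCG00000022527 (0.127), CPAMD8 (0.195) and SLC1A6 (0.205) were the farthest. These points share libraries and the choice of the members. Single libraries stood out for some members and not for others. In library 3 of day 15, ENSSSCG00000027499 had 98.1 CPM, ENSSSCG00000006745 33.4 CPM, DGKB 14.2 CPM, ACTA1 13.1 CPM and RALYL 9.10 CPM, each the highest of its day. In library 4 of the same day SGO2 had 28.7 CPM, MYH6 10.6 CPM and ENSSSCG00000023587 4.76 CPM, again the highest of the day. Of the 22 members found by symbol in the RefSeq annotation of the pig assembly Sscrofa11.1, CA3 and RALYL were picked out as neighbours, with 7 genes between them. The distance taken as near is not given here, so other members may lie somewhat farther apart in the same region.

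The 5 other genes whose 21 group means were most like the mean of the members were MYH13 (r = 0.945), AGTR2 (0.936), ENSSSCG00000013370 (0.915), AQP5 (0.911) and SLC17A1 (0.910). Each was low on day 9 in oviduct as well, and was left out of the members because its ratio in endometrium or ovary was at or under 0.5. AGTR2, a receptor for angiotensin II, had a mean of 192 CPM in oviduct on day 0, 0.301 CPM on day 12 and 65.7 CPM on day 18, with at most 2.73 CPM in any group of the other tissues. AQP5, a water channel, had 58.2, 0.587 and 14.2 CPM on these days in oviduct. MYH13, a myosin heavy chain of eye muscles, had 143, 2.60 and 30.2 CPM, and the treatment of any reads it shares with similar genes is likewise not known. With 0.1 instead of 1 CPM added, only 1 of the 5 genes was still among the 5 most alike.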

How the data were processed

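RNA of oviduct, endometrium and ovary of crossbred gilts was sequenced as poly-A libraries (paired ends, HiSeq 2000). The authors trimmed the reads, aligned them with tophat2 2.0.13 to Sus scrofa 10.2 with Ensembl 78 gene models, and deposited raw counts per gene; featureCounts is named in the submitters' processing notes without its settings, so use of strand and treatment of shared reads are not given in the sources used here. The table holds 66 libraries, and 1 more sample labelled endometrium of day 12 was not used here. Symbols were taken from a table of gene names, which paired 11804 of 25322 identifiers.

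CPM was the count divided by the column total. Tests used edgeR 4.0.16 in R 4.3.3 (TMM normalisation, filterByExpr, quasi-likelihood fits with robust dispersion), 1 fit per tissue and 1 over all 66 libraries for differences between tissues, with Benjamini-Hochberg adjustment over all genes tested and a threshold of 0.05. The SE of a log2 fold change was its size over the root of the F statistic. Alternatives were DESeq2 1.42.0, DESeq2 size factors, no filter on low counts, only the groups compared, a replicate block, and leaving out each library. DESeq2 calls were counted for the members only, so no share of all genes stands beside them. On simulated counts for oviduct day 18 against day 12 (15665 genes), 145 of 200 changed genes were recovered with 8 false calls. For the difference between oviduct and endometrium (16934 genes), 92 of 200 were recovered with 5 false calls. The changed genes were drawn only from those above a set mean level. These rates therefore do not describe members with few counts, and 20 members were under 1 CPM in oviduct on day 12.

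The members and lists were chosen with earlier results of these data known. Days 0 and 9 chose the members and were not tested. The rule for named genes took the members with the largest called changes on day 12 against day 3 and on day 18 against day 12 (10 each at most), the 5 with most CPM in oviduct, and those on a pathway list. Intervals and floors cover counting error only. Library numbers were not taken as pairing in the main fits, since no label ties them to gilts. Across tissues, 42 of 63 same-numbered pairs of a day had a correlation over 0.1, against 10 of 148 pairs of different numbers. These values hint at pairing within a day, and a block of day and number was fitted as an alternative. No sequence or genome of the build used was at hand, so positions are not given.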

Additional observations from a re-analysis of the deposited data

Results flagged for a closer look

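In groups of 4 libraries, a value was singled out when its gap to the nearest other value made up most of the group's range (Dixon's test, 95% level). This held for 11 of the 44 groups examined. They are days 12 and 15 of the oviduct for the 21 members named by rule and for the median of all members. The rate by chance, about 1 in 20 groups, is for values on a continuous scale. A library with counts beside 0 in the rest of its group is always singled out, as for SYNDIG1, ACTA1 and ENSSSCG00000023587 on day 12 and GRM4 on day 15. The 11 groups therefore cannot be set against that rate. The libraries of a group are the same for every member, so these groups are not independent.

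On day 12 most of these values rest on 1 or 2 counts in members that were almost silent: ACTC1 with 0.195 CPM in library 4, ACTA1 with 0.0984 CPM in library 1, and SYNDIG1 (0.214 CPM), ENSSSCG00000026789 (0.214 CPM) and ENSSSCG00000023587 (0.107 CPM) in library 3. Well above that level were ENSSSCG00000010359 with 4.62 CPM in library 1 and ENSSSCG00000011421 with 105 CPM in library 3.

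On day 15 the values singled out were those of ACTA1 with 13.1 CPM and SLC1A6 with 0.827 CPM in library 3, and of ENSSSCG00000023587 with 4.76 CPM and GRM4 with 0.198 CPM in library 4.

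A difference of change between tissues was also picked out, as the change on day 18 against day 12 was larger in oviduct than in endometrium for 10 members and larger in oviduct than in ovary for 10 members by the test of the difference itself.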

How the results depend on the processing

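The choice of members depends on its settings: 74 genes were chosen with 0.1 instead of 1 CPM added (20 of the 46 among them), 72 with TMM library sizes (all 46 among them), 29 with a ratio of at most 0.2 and 102 with at most 0.35, and 43 to 52 without 1 library. When only the groups compared were fitted, with fewer libraries to estimate the spread, 4 members fell on day 12 against day 3 in oviduct, 12 rose on day 18 against day 12, 1 fell on day 12 against day 3 in endometrium, 3 changed more in oviduct than in ovary, 23 and 17 were higher in oviduct than in endometrium and in ovary on day 18, and 5 were higher than in ovary on day 12. DESeq2 called 5 members higher on day 15 against day 12, 6 higher on day 18 against day 15, 3 lower on day 6 against day 3 in oviduct, 1 higher in ovary on day 18, 5 lower on day 12 against day 3 in endometrium and 19 with a larger change in oviduct than in endometrium. The cause of these shifts was not tested.

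Without 1 library at a time, 3 to 11 members fell on day 12 against day 3 and 15 to 28 rose on day 18 against day 12 in oviduct. The ranges were 0 to 8 for day 15 against day 12, 0 to 11 for day 18 against day 15, 0 to 1 for the ovary on day 18 against day 12 (1 without library 1 of day 12), and 0 to 6 for the fall in endometrium. They were 6 to 17 and 6 to 13 for the interactions with endometrium and ovary, 30 to 36 and 24 to 29 for the levels on day 18, and 8 to 12 and 9 to 12 for the levels on day 12. The median of the members on day 18 minus day 12 was 1.42 on log2(CPM + 1), with a range of 1.07 to 1.83. No result reversed. With 0.1 CPM added, 1 of the 5 most alike genes was kept.

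Libraries of a day that share a number in different tissues had a median correlation of deviations of 0.123, with 42 of 63 pairs over 0.1, against −0.0516 and 10 of 148 for different numbers. Between oviduct and endometrium the pairs over 0.1 were 17 of 21 with the same number and 0 of 49 otherwise, a hint from the data that numbers mark gilts within a day. Across days, which are different gilts, no such difference was seen (−0.0167 and 0.00106). With a replicate block of day and number in the fit over all tissues, 10 and 8 members differed in change from endometrium and ovary, 35 and 30 were higher in oviduct on day 18 and 11 and 11 on day 12. With the number as a block within oviduct, 5 members fell on day 12 against day 3 and 24 rose on day 18 against day 12. No other count of members called moved by over 1.5 times with a block. Depth limits the members that had 1 to 3 counts on day 12, whose fitted changes have wide counting intervals.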
